A study of Mus musculus with 6 samples.

Results

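Transcripts of 10 genes of the IL-6, IL-12 and oncostatin families were examined in mouse CD8+ T cells treated with an inhibitor of the histone demethylase LSD1. The genes were chosen by name as rows of the deposited count table, and all 10 were found among its 16281 genes. They comprise the ligands Osm (oncostatin M) and Lif (leukemia inhibitory factor), the ligand subunit Ebi3, the receptor chains Il6ra, Il6st, Il12rb1, Il12rb2, Il27ra and Il23r, and She, which encodes an SH2-domain adaptor that lies next to Il6ra on the chromosome. CD8+ T cells came from spleens of OT1 mice on a C57BL/6 background, whose transgenic T-cell receptor (Tg(TcraTcrb)1100Mjb) recognizes an ovalbumin peptide. The series text adds lymph nodes as a source, and the cells were isolated with a CD8+ selection kit. All cultures were activated for 48 h with plate-bound anti-CD3 and soluble anti-CD28 in the presence of IL-2 at 20 ng/ml and were then expanded in IL-2 for 3 days. The 3 GSK cultures received GSK2879552 (GSK), an irreversible LSD1 inhibitor, at 0.5 μM during activation and expansion, and the 3 Veh cultures received vehicle. Every culture therefore shared the same transgenic receptor and the same supply of IL-2, and neither antigen-presenting cells nor IL-6 or IL-12 are named among the additions.

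Most cytokines of the IL-6 family signal through gp130, which is encoded by Il6st. This chain pairs with another that gives the receptor its specificity, such as the IL-6 receptor α-chain encoded by Il6ra. Cytokines of the IL-12 family are heterodimers and use Il12rb1 with Il12rb2 for IL-12, Il12rb1 with Il23r for IL-23, and Il27ra with gp130 for IL-27, whose EBI3 subunit is encoded by Ebi3. In T cells these receptors act through JAK kinases on STAT proteins, mainly STAT3 downstream of gp130 and STAT4 downstream of the IL-12 receptor, and IL-12 is known for raising interferon-γ production by activated CD8+ T cells.

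She and Il6ra, which lie next to each other on chromosome 3 and both rose, and Ebi3, which fell, are the changed members for which the RefSeq promoter table (GRCm38.p6) had an entry. The table matched 7 of the 10 members. The 250 bases before each start are shown because the 3 genes differ in how many CG dinucleotides they hold, which are in capitals. The She promoter is at chr3:89831120-89831369 (+ strand), the Il6ra promoter at chr3:89913197-89913446 (− strand) and the Ebi3 promoter at chr17:55952373-55952622 (+ strand), each written 5′ to 3′ in the direction of transcription.
She: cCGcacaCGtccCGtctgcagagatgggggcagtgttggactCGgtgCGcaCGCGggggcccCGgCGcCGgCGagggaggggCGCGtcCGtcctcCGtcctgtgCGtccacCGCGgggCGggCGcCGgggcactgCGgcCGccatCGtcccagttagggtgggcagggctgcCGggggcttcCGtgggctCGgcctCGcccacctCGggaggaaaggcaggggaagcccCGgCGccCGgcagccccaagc
Il6ra: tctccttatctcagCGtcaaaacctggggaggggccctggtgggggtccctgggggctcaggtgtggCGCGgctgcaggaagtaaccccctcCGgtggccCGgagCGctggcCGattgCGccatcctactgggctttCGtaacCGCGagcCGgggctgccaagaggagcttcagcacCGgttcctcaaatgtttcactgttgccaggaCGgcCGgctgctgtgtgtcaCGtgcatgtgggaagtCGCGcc
Ebi3: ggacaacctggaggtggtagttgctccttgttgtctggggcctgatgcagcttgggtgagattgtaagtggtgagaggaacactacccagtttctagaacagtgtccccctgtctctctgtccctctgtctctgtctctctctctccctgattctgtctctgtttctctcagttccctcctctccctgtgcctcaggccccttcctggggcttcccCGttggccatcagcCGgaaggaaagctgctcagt

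The She promoter held 32 CG dinucleotides, and 4.58% of the 32851 promoters in the table held as many or more in the same length. The Il6ra promoter held 18, a number reached by 21.7% of promoters, and the Ebi3 promoter held 2, against a median of 6 over all promoters. The share of G and C was 77.6% for She, 65.2% for Il6ra and 56.0% for Ebi3, with a median of 52.4% over all promoters. Of the matched members that did not pass the test, Il6st held 26 CG dinucleotides, Il12rb2 held 10 and Lif held 6, so the count did not separate the members that rose from the others. Both strands were searched for the STAT motif TTCNNNGAA, the AP-1 motif TGANTCA, the NFAT core GGAAA and the T-box motif AGGTGTGA, and GGAAA can overlap TTCNNNGAA. TTCNNNGAA, present in 7.02% of all promoters, was found only in Il12rb2 among the 7 members, starting 123 bases before the start. TGANTCA, present in 6.75% of promoters, was found only in Lif, starting 228 bases before the start. GGAAA, present in 55.6% of promoters, started 40 bases before the start in She, 15 in Ebi3 and 129 in Lif, with 2 matches in Il6st, 3 in Il23r and none in Il6ra or Il12rb2. AGGTGTGA, present in 1.12% of promoters, was in none of the 7. These matches describe letters, and an absent match says only that the letters are not in these 250 bases.

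The RNA was polyadenylated and sequenced from stranded libraries, and the deposited values are whole read counts per gene, which summed to between 18288447 and 19846720 per sample. Levels below are normalised read counts (CPM), each count divided by the scaled total of its sample, so that 1 CPM stands for 18.4 to 19.8 reads. Changes are log2 fold changes of GSK against Veh from edgeR's quasi-likelihood test, adjusted by the Benjamini-Hochberg method over the 11698 genes with enough counts. A gene was called upregulated or downregulated when its adjusted p was under 0.05 and its level changed by more than 1.5-fold. With 3 samples per group an exact permutation test of a gene cannot give a p under 0.1, so none was run. The first principal component of the 500 most variable genes (56.0% of variance) separated the groups. GSK replicate 3 stood apart from the other samples on the second (20.4%), so some results, but not all, are also given without it. Kdm1a, which encodes LSD1, averaged 92.8 ± 5.45 CPM in Veh samples and 87.0 ± 3.54 CPM in GSK samples (SD, n = 3), a log2 fold change of -0.09 (SE 0.055), and edgeR's quasi-likelihood test gave an adjusted p of 0.22. GSK acts on the enzyme, so this transcript does not check the labels. All 8 CD8 T-cell markers examined were expressed, with a summed level of 2693 to 2843 CPM in Veh and 2438 to 2666 CPM in GSK. By adjusted p, 4 of them (Cd3d, Cd3e, Cd3g and Cd28) were lower in GSK, against 15.5% of all tested genes. Cd2 was higher, against 16.6%, and all these changes were under 1.5-fold. Of 4 CD4 T-cell markers, Cd4 averaged 1.19 CPM in Veh samples and 0.967 CPM in GSK samples, Foxp3 3.26 and 3.54 CPM and Zbtb7b 42.1 and 37.6 CPM, none of which passed the test, while Cd40lg rose from 0.446 to 1.29 CPM (2.87-fold, adjusted p = 0.018). Klri2 of the 4 NK-cell markers rose 2.59-fold and Cd22 of the 8 B-cell markers rose 6.27-fold (0.409 to 2.60 CPM), whereas the defining NK markers Ncr1 and Klra8 and B-cell markers Ms4a1 and Pax5 had fewer than 10 counts in every sample. The summed level was 3.47 to 4.99 CPM in Veh and 7.66 to 8.76 CPM in GSK for the NK list, and 6.41 to 8.15 and 7.92 to 9.61 CPM for the B-cell list. The part of these markers in the results below was not tested. The paper names 3 separate OT1 mice and 3 mice per group. It does not say whether a Veh and a GSK culture came from the same mouse. The main test therefore did not pair samples, and its p-values measure the spread between these samples within a group. In such bulk RNA, fewer cells with a transcript and less transcript per cell cannot be told apart.

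Osm, She and Il6ra rose and Ebi3 fell in GSK-treated CD8+ T cells, while the fitted changes of the shared chain Il6st and of the tested IL-12 family receptor chains were under 1.5-fold. Of the 9 members with enough counts to test, 3 were called upregulated, against 2.22% of all tested genes, and 1 was called downregulated, against 4.09%. The members were chosen with earlier results of these data known, so these shares describe them and do not test them as a set. Of the 9, 6 had a fitted change above 0, as did 49.3% of tested genes, and their median log2 fold change was 0.31, against -0.0039 over all tested genes. In 4 members (Osm, Lif, Il12rb1 and She) every GSK sample lay above every Veh sample, as in 23.7% of tested genes, and in 1 (Ebi3) every GSK sample lay below, as in 23.0%. Il23r was the member that had too few counts. When the change itself was tested against 1.5-fold with edgeR's glmTreat, 0 members passed after adjustment and 4 (Osm, Lif, Il6ra and She) had an unadjusted p under 0.05, so these data show a change in the called members but not that it exceeds 1.5-fold.

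**Figure D1:**
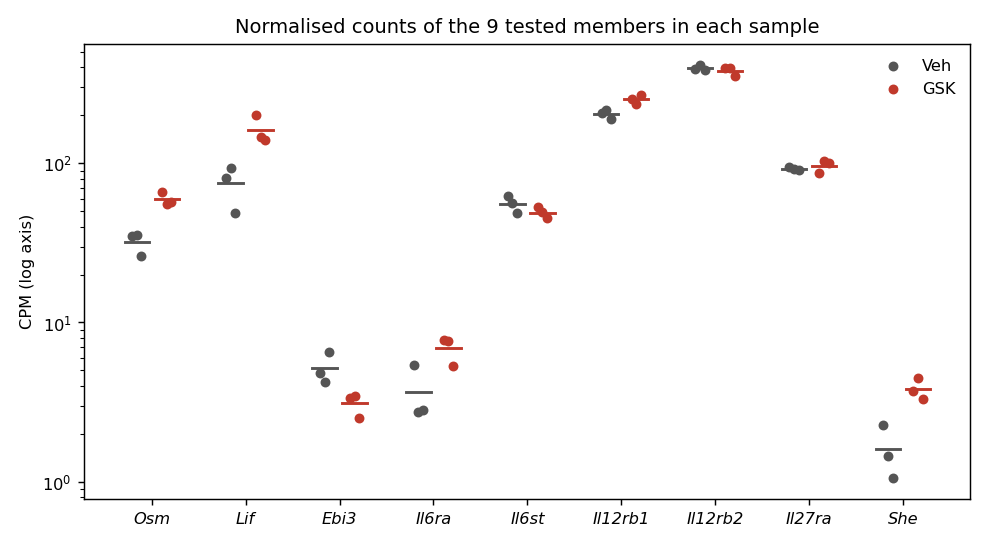
CPM (log axis) of the 9 tested members in each sample, with Veh in grey and GSK in red. Points are samples and lines are group means (n = 3), and the groups are fully apart for Osm, Lif, Ebi3, Il12rb1 and She.

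Osm encodes oncostatin M, a ligand of gp130-containing receptors that activated T cells can secrete. Its level was 34.9, 35.4 and 26 CPM in the Veh samples and 66.5, 55.9 and 57.3 CPM in the GSK samples. All GSK samples were higher than all Veh samples, and the smallest GSK value exceeded the largest Veh value by more than the spread within either group. The means were 32.1 ± 5.29 and 59.9 ± 5.76 CPM (SD, n = 3), a log2 fold change of 0.90 (SE 0.12, 95% interval 0.63 to 1.17), or 1.87-fold, and edgeR's quasi-likelihood test gave an adjusted p of 6.9e-04. Without GSK replicate 3 the log2 fold change was 0.93. The gene lies at chr11:4236785-4241026 on the + strand.

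Lif encodes leukemia inhibitory factor, a related ligand whose gene follows Osm on the same strand at chr11:4257568-4272514. Its level was 81.4, 93.6 and 49.0 CPM in the Veh samples and 200.3, 147 and 139 CPM in the GSK samples. The groups did not overlap, but Veh replicate 3 was well below the other Veh samples and GSK replicate 1 well above the other GSK samples. The means were 74.7 ± 23.1 and 162 ± 33.3 CPM (SD, n = 3), a log2 fold change of 1.12 (SE 0.31, 95% interval 0.30 to 1.94). In edgeR's quasi-likelihood test the adjusted p was 0.056 and did not pass the threshold. It did pass in DESeq2 (adjusted p = 0.0020) and in edgeR's test without Veh replicate 3 (adjusted p = 0.036, log2 fold change 0.89), and without GSK replicate 3 the adjusted p was 0.11. Lif thus had a larger fitted change than Osm, with a standard error that was also larger.

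Ebi3 encodes a subunit shared by IL-27 and IL-35, which antigen-presenting cells and regulatory T cells are known to make. Its counts were 88, 79 and 124 in the Veh samples and 64, 68 and 48 in the GSK samples, or 4.78, 4.24 and 6.51 CPM against 3.36, 3.44 and 2.50 CPM. Veh replicate 3 was the highest sample and GSK replicate 3 the lowest, and the groups did not overlap. The means were 5.18 ± 1.19 and 3.10 ± 0.520 CPM (SD, n = 3), a log2 fold change of -0.74 (SE 0.21, 95% interval -1.20 to -0.28), or 1.67-fold lower, and edgeR's quasi-likelihood test gave an adjusted p of 0.018. The call was lost without Veh replicate 3 (log2 fold change -0.54, adjusted p = 0.095) and without GSK replicate 3 (log2 fold change -0.61, adjusted p = 0.062). The gene lies at chr17:55952623-55957022 on the + strand and shares 270 exon bases, 23.4% of its exons, with Gm16712 on the opposite strand, which was not analysed here. Whether the counting used the strand is not given in the sources used here, so the shared bases could have affected the Ebi3 counts. Among 10 markers of myeloid and dendritic cells in the table, the summed level was 14.3 to 20.5 CPM in Veh and 11.7 to 15.1 CPM in GSK. Itgax, the dendritic-cell integrin CD11c that activated CD8+ T cells also express, fell from 3.39 ± 0.971 to 1.31 ± 0.144 CPM (log2 fold change -1.37, SE 0.27, adjusted p = 0.0023), and Itgam was at 2.44 and 1.5 CPM without overlap of the groups (log2 fold change -0.70, adjusted p = 0.073). Cd68 was expressed at 8.86 and 9.33 CPM (log2 fold change 0.08, adjusted p = 0.74), Lyz2 was at 0.775 and 0.306 CPM (adjusted p = 0.29), Zbtb46 was at 0.623 and 0.639 CPM, and the remaining Csf1r, Adgre1, Cd14, Fcgr1 and Flt3 had fewer than 10 counts in every sample. The part of these markers in the Ebi3 result was not tested.

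Il6ra encodes the α-chain that binds IL-6 and lies at chr3:89869324-89913196 on the − strand. Its counts were 99, 51 and 54 in the Veh samples and 148, 151 and 102 in the GSK samples, or 5.38, 2.73 and 2.84 CPM against 7.77, 7.64 and 5.32 CPM. Veh replicate 1 stood above the other Veh samples and just above GSK replicate 3, so the groups overlapped by these 2 samples. The means were 3.65 ± 1.5 and 6.91 ± 1.38 CPM (SD, n = 3), a log2 fold change of 0.92 (SE 0.26, 95% interval 0.35 to 1.49), or 1.89-fold, and edgeR's quasi-likelihood test gave an adjusted p of 0.020. The direction held when each sample was left out (log2 fold change 0.75 to 1.31). The call was lost without Veh replicate 2 (adjusted p = 0.068), Veh replicate 3 (0.078), GSK replicate 1 (0.078) or GSK replicate 2 (0.053), and held without GSK replicate 3 (0.0089). Of its exon bases, 242 (2.80%) are shared with Gm42809 on the opposite strand, which was not analysed here.

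Il6st encodes gp130, the chain through which IL-6, oncostatin M, leukemia inhibitory factor and IL-27 signal. Its level was 62.1, 55.9 and 48.7 CPM in the Veh samples and 52.8, 49.1 and 45.3 CPM in the GSK samples. The lowest Veh sample fell within the range of the GSK samples. The means were 55.6 ± 6.70 and 49.1 ± 3.75 CPM (SD, n = 3), a log2 fold change of -0.18 (SE 0.087, 95% interval -0.37 to 0.011), and edgeR's quasi-likelihood test gave an adjusted p of 0.14. It was -0.13 without GSK replicate 3 (adjusted p = 0.33) and -0.27 without Veh replicate 3, where it passed the adjusted threshold (adjusted p = 0.033). The gene lies at chr13:112464070-112506860 on the + strand. The ligand-binding chain Il6ra and the signalling chain Il6st therefore had fitted changes of opposite sign, of which only that of Il6ra passed the test.

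Il12rb1 encodes the chain common to the IL-12 and IL-23 receptors and rose by less than 1.5-fold. Its level was 208, 215 and 189 CPM in the Veh samples and 255, 237 and 268 CPM in the GSK samples. Every GSK sample was above every Veh sample, and the spread within each group was small. The means were 204 ± 13.6 and 253 ± 15.7 CPM (SD, n = 3), a log2 fold change of 0.31 (SE 0.058, 95% interval 0.19 to 0.44), or 1.24-fold, and edgeR's quasi-likelihood test gave an adjusted p of 0.0016. Without the fold criterion, 16.6% of tested genes passed in this direction. The gene lies at chr8:70808360-70823542 on the + strand.

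Il12rb2 encodes the signal-transducing chain of the IL-12 receptor, which binds STAT4. Its level was 389, 417 and 384 CPM in the Veh samples and 399, 397 and 352 CPM in the GSK samples, with overlapping groups. The means were 397 ± 17.7 and 383 ± 27.0 CPM (SD, n = 3), and the log2 fold change of -0.05 (SE 0.053, adjusted p = 0.50 in edgeR's quasi-likelihood test) had a 95% interval from 0.892-fold to 1.05-fold. It was 0.0047 without GSK replicate 3, so its sign rested on that sample. Of its exon bases, 1519 (40.0%) lie on the opposite strand of Serbp1, an RNA-binding protein gene. Serbp1 averaged 759 CPM in the Veh and 874 CPM in the GSK samples (log2 fold change 0.20, adjusted p = 0.0026 in edgeR's quasi-likelihood test). The shared bases could have affected the counts of both genes if strand was not used. The gene lies at chr6:67285986-67376293 on the − strand. Within samples, the ratio of Il12rb1 to Il12rb2 counts was 0.536, 0.517 and 0.492 in Veh and 0.638, 0.597 and 0.764 in GSK, and the groups did not overlap.

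Il27ra encodes the chain that pairs with gp130 for IL-27 and lies at chr8:84030286-84042600 on the − strand. Its level was 94.6, 91.6 and 90.9 CPM in the Veh samples and 86.8, 103 and 100.1 CPM in the GSK samples. GSK replicate 1 lay below all Veh samples and the other GSK samples above them. The means were 92.4 ± 1.95 and 96.7 ± 8.69 CPM (SD, n = 3), and the log2 fold change of 0.07 (SE 0.062, adjusted p = 0.44 in edgeR's quasi-likelihood test) had a 95% interval from 0.955-fold to 1.15-fold. A change of 1.5-fold lay outside the intervals, which are not adjusted, of Il12rb1, Il12rb2, Il27ra and Il6st.

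Il23r encodes the chain that gives the IL-23 receptor its specificity and is best known from T cells that make IL-17. Its counts were 0, 0 and 2 in the Veh samples and 0, 6 and 1 in the GSK samples, so it was not tested. A count of 0 allows up to 3 counts, or 0.152 to 0.163 CPM in these libraries, and covers counting error only. The highest sample, GSK replicate 2, was at 0.303 CPM. A difference in Il23r was not detectable at this depth, and its neighbour Il12rb2, 46638 bases away, was the most abundant member. Il23r itself lies at chr6:67422932-67491855 on the − strand.

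She, whose product is an adaptor of the SHB family of SH2-domain proteins, had the largest fitted change of the 9 tested members. Its counts were 42, 27 and 20 in the Veh samples and 71, 88 and 63 in the GSK samples, or 2.28, 1.45 and 1.05 CPM against 3.73, 4.45 and 3.28 CPM. The groups did not overlap, although the level was low in both. The means were 1.59 ± 0.629 and 3.82 ± 0.590 CPM (SD, n = 3), a log2 fold change of 1.26 (SE 0.28, 95% interval 0.66 to 1.86), or 2.40-fold, and edgeR's quasi-likelihood test gave an adjusted p of 0.0043. Leaving out each sample in turn gave log2 fold changes from 1.03 to 1.61 and adjusted p up to 0.020 in the same test, and 1.36 without GSK replicate 3. The gene lies at chr3:89831370-89858846 on the + strand.

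**Figure D2:**
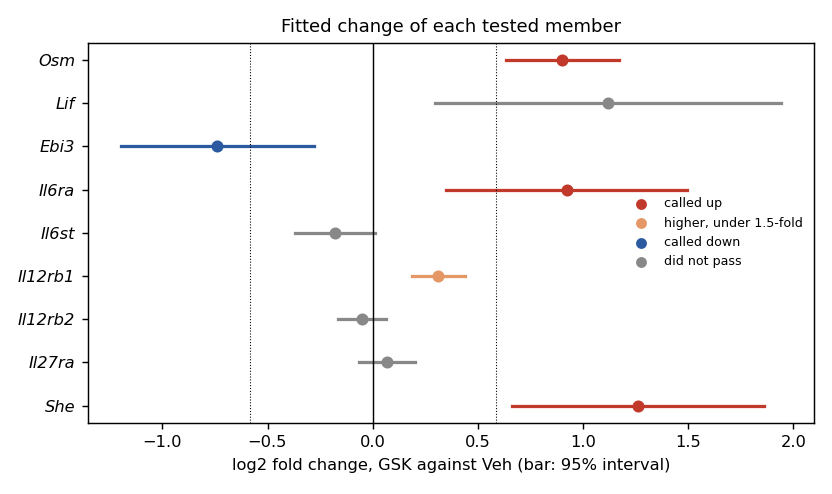
Log2 fold change of GSK against Veh (x axis) for the 9 tested members (y axis), with 95% intervals as bars and dotted lines at 1.5-fold in either direction. Red marks the upregulated Osm, Il6ra and She, orange Il12rb1 (higher by less than 1.5-fold), blue the downregulated Ebi3, and grey the members that did not pass, among which Lif has the widest interval (0.30 to 1.94).

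Levels of different genes were compared as CPM per kilobase of annotated exon. Il12rb2 was the most abundant member in Veh at 104.5 CPM per kilobase, followed by Il12rb1 at 49.7, Il27ra at 26.4, Lif at 17.2, Osm at 14.1, Il6st at 5.01, Ebi3 at 4.49, Il6ra at 0.422, She at 0.221 and Il23r at 0.014. On this per-kilobase scale the samples of Lif and Osm overlapped in Veh, as did those of Il6st and Ebi3, so these neighbours in the order did not differ beyond their spread. In GSK the mean levels per kilobase were 100.9 for Il12rb2, 61.8 for Il12rb1, 37.3 for Lif, 27.7 for Il27ra, 26.4 for Osm, 4.42 for Il6st, 2.69 for Ebi3, 0.799 for Il6ra, 0.529 for She and 0.048 for Il23r. Lif was thus above Il27ra in every GSK sample (46.1, 33.8 and 32 against 24.8, 29.5 and 28.6 CPM per kilobase), while Osm and Il27ra overlapped. The IL-12 receptor chains were far more abundant per kilobase than the IL-6 α-chain in both groups, with Il6ra below 1 CPM per kilobase on average.

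Il6ra and She are convergent neighbours on chromosome 3 with 10477 bases between their ends, and Osm and Lif follow each other on chromosome 11 with 16541 bases between them. The ratio of Il6ra to She counts within a sample was 2.36, 1.89 and 2.70 in Veh and 2.08, 1.72 and 1.62 in GSK, and the ranges overlapped. The ratio of Lif to Osm counts was 2.33, 2.65 and 1.88 in Veh and 3.01, 2.63 and 2.43 in GSK, and these ranges overlapped as well. Within each pair, the members thus had fitted changes of the same sign and ratios that did not separate the groups. Another 12 tested genes lay at least partly within 150 kb of the middle of either pair. By the adjusted p of edgeR's quasi-likelihood test, 4 of the 12 were higher in GSK, against 16.6% of all tested genes. None was lower, against 15.5% of all tested genes. The log2 fold changes of the 12 lay between -0.30 and 0.28. The nearest tested gene beyond Il6ra was Atp8b2, a phospholipid-transporting ATPase gene 26284 bases away, averaging 237 CPM in Veh samples and 283 CPM in GSK samples (log2 fold change 0.26, SE 0.043, adjusted p = 7.3e-04). Beyond She it was Ube2q1, 47372 bases away, with a log2 fold change of 0.16 (adjusted p = 0.021). Beside Osm it was Castor1, 14375 bases away, with 0.28 (adjusted p = 0.13), and beyond Lif the nearest gene with counts, Hormad2, was not tested. Next to Il12rb1, Mast3 had a log2 fold change of -0.12 (adjusted p = 0.064) and Arrdc2 of 0.023 (adjusted p = 0.88), and next to Ebi3, Yju2 had 0.15 (adjusted p = 0.27) and Zfp959 -0.13 (adjusted p = 0.45). Next to Il27ra, Misp3 averaged 1.28 CPM in Veh samples and 0.587 CPM in GSK samples, with a log2 fold change of -1.12 (SE 0.48, adjusted p = 0.091), and next to Il12rb2, Gadd45a had -0.24 (adjusted p = 0.65). Palm3, which shares 2 exon bases with Il27ra, had 0.61 (adjusted p = 0.28), and Zfp119b, whose region overlaps that of Ebi3, had -0.08 (adjusted p = 0.77). Rln3 beside Il27ra, and Il31ra and Ankrd55 beside Il6st, had too few counts to test.

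**Figure D3:**
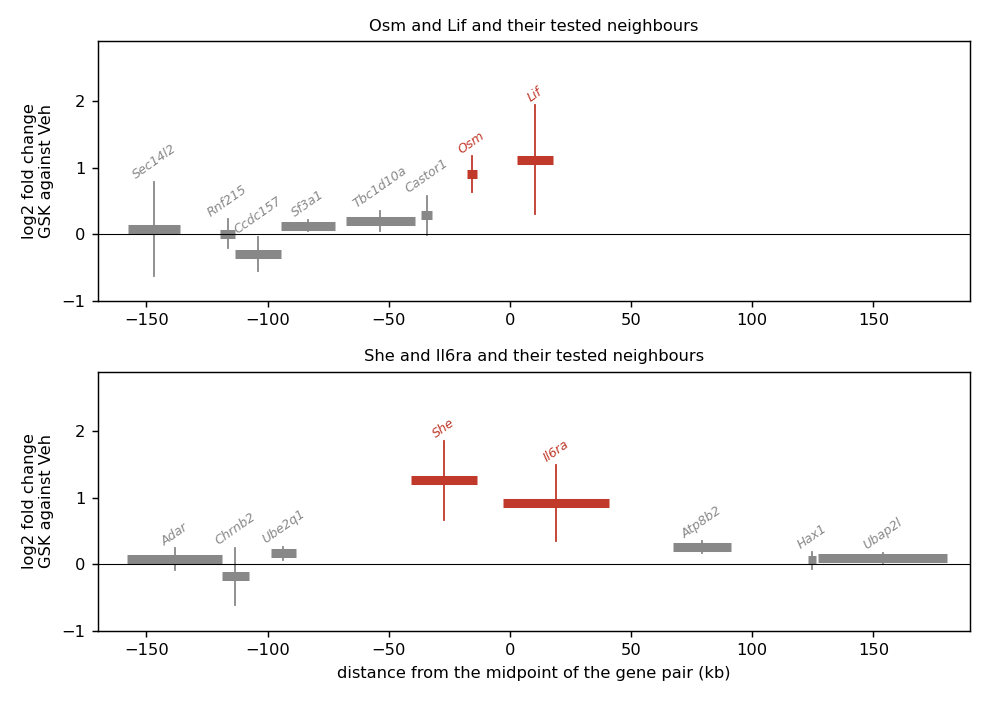
Log2 fold change of GSK against Veh (y axis) of tested genes by their distance from the midpoint of a gene pair in kb (x axis), for Osm with Lif and for She with Il6ra. Horizontal bars span each gene, vertical lines are 95% intervals, members are red whether or not they passed and other genes grey, and the 4 members lie above their 12 tested neighbours (-0.30 to 0.28).

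The other genes of these pathways were taken from lists of ligands, receptor chains, JAK-STAT transducers, feedback regulators, SHB adaptors and known STAT3 and STAT4 targets. Of 67 such genes outside the members, 48 were tested and 15 were below the count filter. Among the 48, 5 were called upregulated (10.4%, against 2.22% of all tested genes) and 3 downregulated (6.25%, against 4.09%), with a median log2 fold change of -0.022. By adjusted p alone, 14 were higher (29.2%, against 16.6% of all tested genes) and 10 lower (20.8%, against 15.5%). The lists, too, were chosen with earlier results of these data known, so their shares are descriptions. The counts by adjusted p in each list below are set beside these same shares of all tested genes. The remaining 4, Il27, Il12b, Cntfr and Il21, were not analysed here.

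Among ligands, those of IL-6 itself (Il6, highest count 1), IL-11 (Il11, 4), cardiotrophin (Ctf1, 3) and IL-31 (Il31, 1) were below 10 counts in every sample, as were the IL-12 and IL-23 subunits Il12a (3) and Il23a (2). Clcf1, a ligand of the ciliary neurotrophic factor receptor, was lower in GSK, from 31.2 ± 2.73 to 25.7 ± 0.817 CPM (log2 fold change -0.28, SE 0.079, adjusted p = 0.015), and its region overlaps annotated long non-coding RNAs. Of the specific receptor chains, Lifr (highest count 7), Osmr (2) and Il31ra (3) were also below 10 counts. These cells thus held transcripts of Osm and Lif together with Il6st, while the chains that pair with gp130 to bind oncostatin M or leukemia inhibitory factor stayed under 10 counts per sample.

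Among 10 tested JAK-STAT transducers, none rose by the adjusted p in edgeR's quasi-likelihood test (background 16.6%) and 4 fell (background 15.5%), with a median log2 fold change of -0.10. Jak2, a kinase of the IL-12 and gp130 receptors, fell from 144 ± 2.07 to 119 ± 9.96 CPM (log2 fold change -0.27, SE 0.057, adjusted p = 0.0031). Tyk2, its partner kinase at Il12rb1, fell from 110.1 ± 3.67 to 96.7 ± 1.88 CPM (-0.19, SE 0.046, adjusted p = 0.0088). Stat4, the transcription factor downstream of IL-12, fell from 236 ± 15.1 to 184 ± 21.6 CPM (-0.36, SE 0.083, adjusted p = 0.011). Each of these changes was under 1.5-fold, and Stat4 overlaps an annotated pseudogene. Gab2, a docking adaptor, was called downregulated, from 5.90 ± 1.39 to 3.57 ± 0.647 CPM (-0.72, SE 0.21, adjusted p = 0.018), and lost the call without Veh replicate 2 (adjusted p = 0.094) or GSK replicate 3 (0.057). Stat3 averaged 267 CPM in Veh samples and 257 CPM in GSK samples (-0.06, SE 0.041, adjusted p = 0.30).

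Among 12 genes of feedback and receptor shedding, 4 were higher (background 16.6%) and 1 lower (background 15.5%) by adjusted p, all under 1.5-fold. Cish, a STAT5-induced feedback inhibitor, rose from 126 ± 13.1 to 183 ± 8.14 CPM (log2 fold change 0.53, SE 0.068, adjusted p = 2.3e-04). Socs1, an inhibitor of JAK kinases, rose from 71.1 ± 7.56 to 91.1 ± 4.03 CPM (0.36, SE 0.070, adjusted p = 0.0024), and Ptpn1, a phosphatase of JAK2 and TYK2, rose from 144 ± 5.49 to 170.0 ± 7.0 CPM (0.24, SE 0.048, adjusted p = 0.0021). Socs3, the inhibitor that binds gp130, averaged 26.7 CPM in Veh samples and 22.0 CPM in GSK samples (-0.28, adjusted p = 0.069).

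Of 13 tested STAT3 target genes, 5 were higher (background 16.6%) and 2 lower (background 15.5%) by adjusted p, so the share that was lower was near the background. Il10, which encodes an anti-inflammatory cytokine, rose from 2.94 ± 0.616 to 13.2 ± 3.09 CPM (log2 fold change 2.16, SE 0.21, adjusted p = 2.5e-05). Maf, a transcription factor known to act on Il10, rose from 6.03 ± 0.0940 to 10.8 ± 3.44 CPM (0.84, SE 0.20, adjusted p = 0.0092), with 0.58 without GSK replicate 3, which is under 1.5-fold. Rora, a nuclear receptor gene, fell from 25.9 ± 0.127 to 16 ± 1.43 CPM (-0.70, SE 0.084, adjusted p = 8.2e-05), and its region overlaps several long non-coding RNAs. Bcl3 (0.44, adjusted p = 0.0046) and Cebpb (0.44, adjusted p = 0.024) were higher and Junb (-0.17, adjusted p = 0.034) was lower, all by less than 1.5-fold.

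Of 10 tested STAT4 target genes, 5 were higher (background 16.6%) and 2 lower (background 15.5%) by adjusted p, and here too the share that was lower was near the background. Ifng, the interferon-γ gene, rose from 4.74 ± 2.08 to 12.4 ± 1.92 CPM (log2 fold change 1.39, SE 0.31, adjusted p = 0.014, and 0.051 without GSK replicate 3). Gadd45g, which is induced by IL-12 in T cells, rose from 24.2 ± 2.55 to 53.5 ± 3.43 CPM (1.15, SE 0.082, adjusted p = 1.4e-06). Hlx, a homeobox gene, rose from 0.284 ± 0.166 to 0.740 ± 0.0643 CPM (1.36, SE 0.48, adjusted p = 0.045), and this call was lost with no count filter (0.079) and when any sample but Veh replicate 3 was left out (0.090 to 0.15). DESeq2 gave Hlx no adjusted p, and a filter of 1 CPM in 3 samples removed it. Tbx21, which encodes T-bet, fell from 44.5 ± 0.721 to 28.5 ± 2.39 CPM (-0.64, SE 0.071, adjusted p = 4.6e-05). Map3k8, a kinase gene, rose by 0.23 (adjusted p = 0.012) and Gadd45b was lower, at -0.45 (adjusted p = 0.026). The STAT4 list therefore held genes that rose and genes that fell, while Stat4 fell and the interval of Il12rb2 stayed within 1.5-fold.

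**Figure D4:**
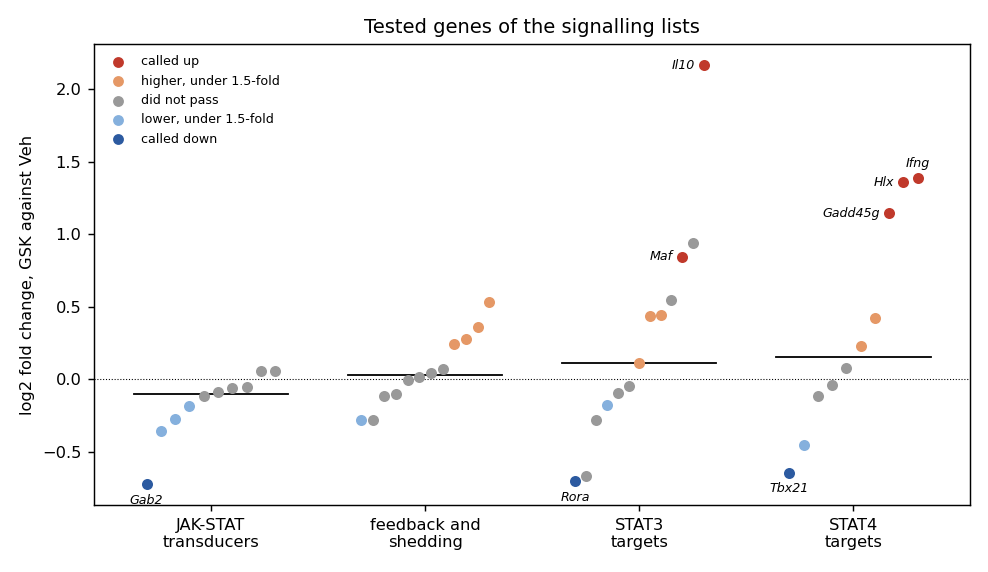
Log2 fold change of GSK against Veh (y axis) of each tested gene in 4 signalling lists (x axis), with a line at each list's median. Red and blue mark genes called upregulated and downregulated, orange and light blue those past the adjusted p but under 1.5-fold, and the JAK-STAT transducers have a median of -0.10 with Gab2 the lowest at -0.72.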

How the data were processed

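RNA of CD8+ T cells from 3 Veh and 3 GSK cultures was sequenced. Per the labels and the paper's methods, reads were trimmed with Trimmomatic and mapped to GRCm38 with HISAT2 2.1.0, and the authors deposited whole counts per gene from HTSeq 0.11.2, without normalization. The annotation release and strand setting are not given in the sources used here. The authors' own FPKM (Cufflinks 2.2.1) and DESeq2 1.22.2 calls were not used.

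Counts were compared in R 4.3.3 with edgeR 4.0.16 (robust quasi-likelihood test, TMM scaling, filterByExpr with a minimum count of 10, Benjamini-Hochberg adjustment). Calls required an adjusted p under 0.05 together with a change of more than 1.5-fold. Standard errors were derived from the test statistic and 95% intervals from its degrees of freedom. On simulated counts for 11698 genes with 200 changed by at least 2-fold in either direction, 91% were recovered with 2 false calls. Recovery of smaller changes was not simulated. Replicates differed by more than sampling noise (chi-square per degree of freedom 4.07 to 9.38). Total counts of 18288447 to 19846720 limit genes of a few reads, such as Il23r.

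Alternatives were RLE size factors, DESeq2 1.42.0, 2 other count filters, the replicate number as a block, the adjusted p alone, a test of the fold change against 1.5, and leaving out each sample. The members and gene lists were chosen with earlier results of these data known. Named were all members, called genes of the pathway lists with up to 3 more per list of smallest p past the adjusted p alone, the nearest and overlapping genes with counts, and Kdm1a, apart from genes that are not reported here. Promoters were shown for up to 3 called members. Il6 and other low or unchanged pathway genes (Stat3, Socs3, ligands and receptor chains), marker genes, and the 12 neighbours drawn were added with their values in view. Gene positions (GRCm38) were read from a RefSeq table, and exon lengths and shared exons those of GENCODE.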

Additional observations from a re-analysis of the deposited data

How the results depend on the processing

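The direction of 8 of the 9 tested members held under every alternative run. Il12rb2 ranged from -0.084 without GSK replicate 1 to 0.0047 without GSK replicate 3 (log2). Osm, She and Il12rb1 kept their side of the threshold in the 11 alternatives that refit or rescale each gene, where the adjusted p in edgeR's quasi-likelihood fits was at most 0.0046, 0.020 and 0.013. Among the 99 member values, 88 kept direction and side, 6 fell short of the threshold and 4 newly passed it. Leaving out each sample gave 2 to 3 upregulated and 0 to 1 downregulated members, 224 to 291 upregulated and 403 to 547 downregulated genes in all, and 2 to 5 pathway genes in each direction. The 0 arose without Veh replicate 3 or GSK replicate 3, where Ebi3 lost its call, and the 2 upregulated pathway genes without GSK replicate 3. Without GSK replicate 2, 5 pathway genes were downregulated. The adjusted p alone gave 1941 higher and 1819 lower genes, of which 14 and 10 were pathway genes. Testing the fold change against 1.5 with edgeR's glmTreat left 69 upregulated and 65 downregulated genes, 2 upregulated and 0 downregulated pathway genes, and 0 members in either direction. At an unadjusted p under 0.05 that test had 4 members higher (Il6ra, She, Osm and Lif) and 0 lower, and 5 pathway genes higher and 1 lower. DESeq2 called 4 members upregulated, Lif included, and 1 downregulated.

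Both groups carry replicate numbers 1 to 3. Deviations of same-numbered samples correlated at -0.052, -0.081 and 0.16, so the numbers were not taken to pair the samples. The replicate block gave 4 upregulated members, adding Lif (adjusted p = 0.0092), 1 downregulated member, 253 upregulated and 447 downregulated genes, and 4 and 3 pathway genes. It also lost the call of Hlx (adjusted p = 0.068). Depth limits Il23r. The intervals of Lif, She, Il6ra and Ebi3 were wider than that of Il12rb1, and the cause was not tested.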
